A study of Oryctolagus cuniculus with 4 samples.

Results

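A run of 3 short genes side by side on chromosome 13 of the rabbit genome, OryCun2.0, was examined in cultured tendon stem/progenitor cells. The genes were chosen by their measured levels, all of them being higher with platelet-rich plasma in an earlier analysis of the same libraries, and the rule took every listed gene lying wholly between positions 39004122 and 39034219. This gave 3 of the 29587 genes in the deposited tables. The values that chose them, the levels with and without plasma, are therefore given as a description with no test.

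Platelet-rich plasma (PRP) is a preparation of blood plasma with concentrated platelets, which release growth factors and cytokines. Tendon stem/progenitor cells are cells of the tendon that can divide and give rise to tendon cells. The cells came from New Zealand White rabbits and were grown in medium with 10% (v/v) PRP or in medium without it (noPRP), with 2 libraries in each group. The labels give no animal age or time in culture, and leave unsaid whether replicates are separate animals, cultures or preparations. In such bulk RNA, more cells of one type and more RNA per cell cannot be told apart.

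The tables name genes by Ensembl identifier only, and the gene table at hand, from another rabbit assembly, matched 0 of the 29587 identifiers. Symbols were therefore not assigned. Whether these genes are the calgranulin genes S100A8, S100A9 and S100A12 was not settled by the sources used here, and no such identity is assumed. For the same reason the labelled cell type was not checked against tendon, leukocyte or platelet markers. The genes are called left, middle and right here, in order of position. As background, short genes of like structure that lie side by side often descend from copies of one gene. Reads that align equally well to more than one copy have no single place of origin, and the counting used here dropped them.

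The left gene, ENSOCUG00000009566, lies on the plus strand at chr13:39004122-39005042. Its 3 exons of 16, 163 and 129 bases, in order of transcription, add up to 308 bases. The middle gene, also on the plus strand, lies at chr13:39017627-39018847 and has 2 exons of 147 and 238 bases, 385 bases in all. The label of 3 exons thus holds for the outer genes but not for this one. The right gene, ENSOCUG00000008632, is on the minus strand at chr13:39032053-39034219. Its 3 exons of 32, 163 and 356 bases add up to 551 bases. Both outer genes have a second exon of exactly 163 bases, a length found in 3.23% of the 22592 listed genes with more than 1 exon. Gaps of 12584 and 13205 bases without a listed gene separate the left from the middle and the middle from the right gene. Genes this small are common in the annotation, where 17.6% of all listed genes have at most 3 exons and at most 551 exon bases.

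The 3 genes had counts in every library, and the outer pair ranked among the most abundant transcripts of the PRP libraries. For the left gene 268 and 818 reads were counted in noPRP replicates 1 and 2, and 55798 and 85119 in PRP replicates 1 and 2. The right gene had 324 and 833 counts without PRP and 55840 and 86959 with it. The middle gene was the least counted in every library, with 96 and 335 counts without PRP and 7603 and 13929 with PRP. Both PRP libraries were above both noPRP libraries for each gene, as in 23.8% of all tested genes. The genes were chosen by this contrast, so nothing is read from it. In each group replicate 2 was above replicate 1. Even the lowest count, 96, was well resolved, with an exact Poisson 95% interval of 77.8 to 117. Such intervals cover counting error only.

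Levels were compared between libraries in counts-per-million units (CPM), with libraries scaled by edgeR's TMM method. Mean levels of the left gene were 24.1 ± 16.8 CPM without and 3283 ± 1360.3 CPM with PRP (SD, n = 2 each). Those of the right gene were close, at 25.7 ± 15.5 CPM without and 3329.6 ± 1424 CPM with PRP. The middle gene averaged 9.55 ± 7.33 CPM without and 505 ± 268 CPM with PRP. The fold between the group means was 136 for the left, 129.6 for the right and 52.9 for the middle gene. The smallest fold between any PRP and any noPRP library was 64.5, 63.4 and 21.5 for the left, right and middle gene, and the greatest was 348, 294 and 159.

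**Figure D1:**
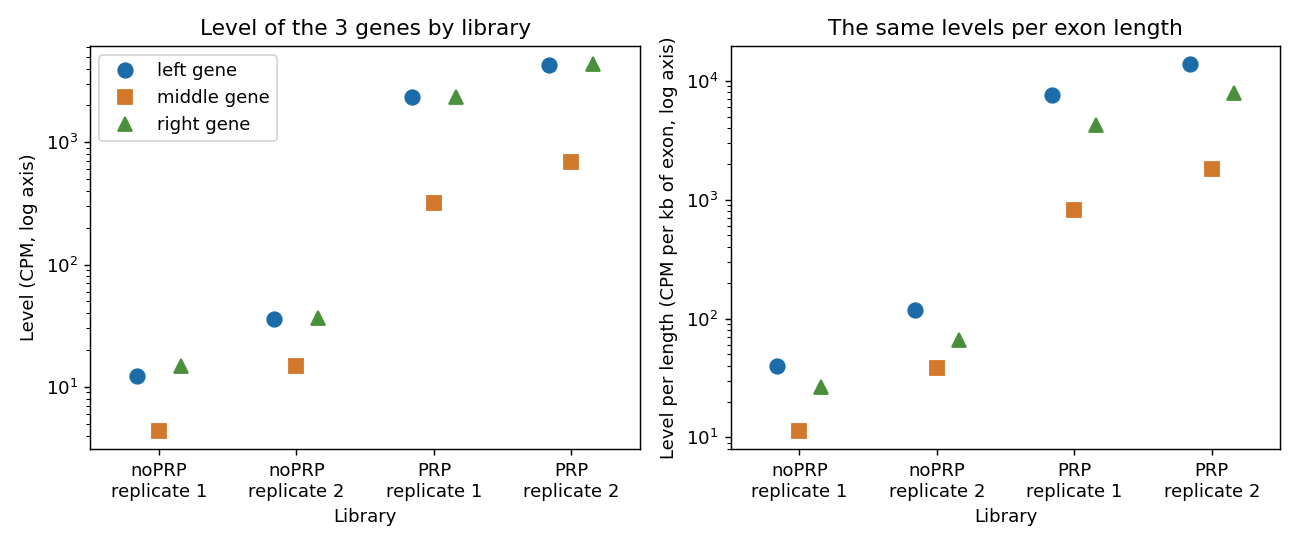
Levels of the left (circles), middle (squares) and right gene (triangles) in each of the 4 libraries, as CPM on the left panel and as CPM per kb of exon on the right panel, both on log axes. Symbols of a library are shifted sideways for legibility. Each gene, chosen by this contrast, is lower in both noPRP libraries than in both PRP libraries. The middle gene is the lowest of the 3 in every library.

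The fitted log2 fold changes from edgeR, given as a description, were 7.09 (SE 1.11) for the left, 7.02 (SE 1.09) for the right and 5.72 (SE 1.02) for the middle gene. All 3 members are among the genes called higher in PRP, for which their interval was picked, and over all 12707 tested genes 0.535% were called higher at an adjusted p under 0.05. Nothing is read from this count. Larger values came from leaving out noPRP replicate 2, the higher of the noPRP libraries for these genes. The log2 fold changes were then 8.06, 7.80 and 6.84 for the left, right and middle gene. That of the middle gene was 5.11 both without noPRP replicate 1 and without PRP replicate 2. Among the 68 genes called higher, the right gene ranked 4, the left 5 and the middle 15 by mean CPM in PRP. Their ranks by fold change were 38, 36 and 53, so other called genes with lower counts had larger fitted changes.

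**Figure D2:**
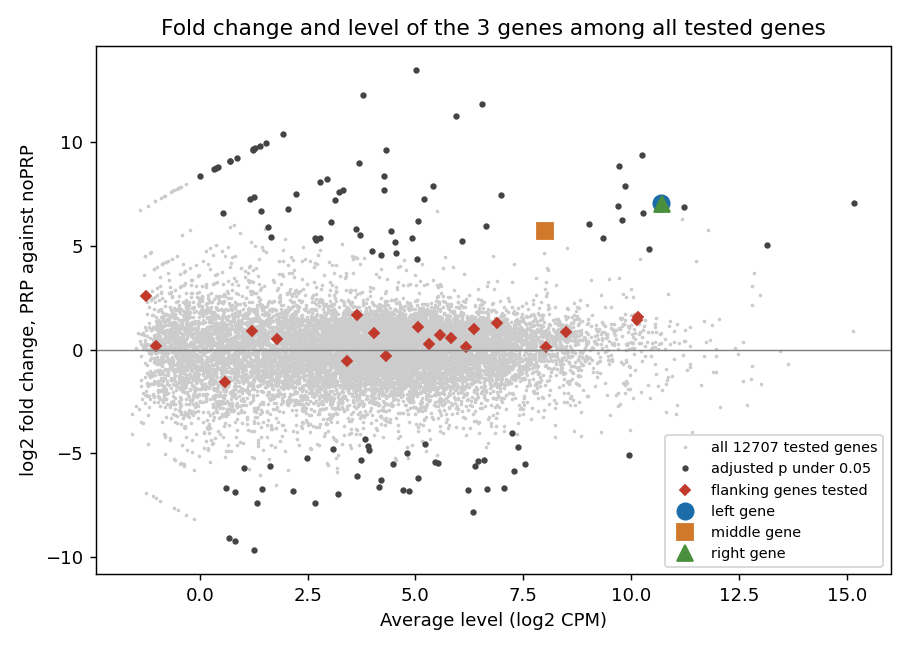
Fitted log2 fold change of PRP against noPRP (vertical axis) against average log2 CPM (horizontal axis) for all 12707 tested genes (grey), with the genes at an adjusted p under 0.05 in black, the tested flanking genes as red diamonds and the left, middle and right genes as a circle, square and triangle. The left and right genes nearly coincide at log2 fold changes of 7.09 and 7.02, and the flanking genes lie between −1.56 and 2.61.

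Among all listed genes of PRP replicate 2, the right gene ranked 21 and the left gene 23 by CPM, while the middle gene ranked 260. In PRP replicate 1 the ranks were 40, 41 and 414. In noPRP replicate 1 the same genes ranked 6034, 6518 and 8739, and in noPRP replicate 2 they ranked 3692, 3730 and 6014. The order of the outer pair by CPM was the same in all 4 libraries, right above left, but the difference between them was small beside the spread between libraries.

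Together the 3 genes took up a visible part of the PRP transcript pool. They held 0.00342% of the counts in noPRP replicate 1 (95% Wilson interval 0.00318 to 0.00369) and 0.00948% in noPRP replicate 2 (0.00907 to 0.00991). Their share was 0.496% in PRP replicate 1 (0.493 to 0.498) and 0.781% in PRP replicate 2 (0.777 to 0.784). On average this was 0.00645% ± 0.0043 without PRP and 0.638% ± 0.20 with PRP (SD, n = 2 each). Of the counts on the 68 genes called higher, these members held 2.43% and 5.56% without PRP and 3.62% and 8.75% with it, in order of replicate.

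Between genes, levels were compared per exon length, and on that scale the order was left, right, middle in each of the 4 libraries. By CPM the right gene was above the left, so the order of the outer pair rests on the annotated lengths of 308 and 551 bases. The left gene was at 39.6 and 117 CPM per kb of exon in noPRP and at 7535 and 13782 in PRP. The right gene was at 26.8 and 66.5 in noPRP and at 4215 and 7870.2 in PRP, in the same unit. The middle gene was at 11.3 and 38.3 in noPRP and at 821 and 1804 in PRP. By this measure the left gene ranked 8 and 4 among all listed genes in PRP replicates 1 and 2, the right gene 15 and 11, and the middle gene 87 and 65. In noPRP replicates 1 and 2 the left gene ranked 2061 and 710, the right gene 2793 and 1280, and the middle gene 4826 and 2105 of the 29587 genes, higher places than by CPM. Within a group the ranges of the left and right gene overlapped, so their order shows only when they are compared inside a library.

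A ratio of 2 genes within a library does not depend on library size, so the members were also compared that way. The outer genes had close to equal counts in 3 libraries, and the left gene had somewhat fewer than the right in noPRP replicate 1. Left over right was 0.827 in noPRP replicate 1 (exact binomial 95% interval 0.701 to 0.975), 0.982 in noPRP replicate 2 (0.891 to 1.08), 0.999 in PRP replicate 1 (0.988 to 1.01) and 0.979 in PRP replicate 2 (0.970 to 0.988). Per exon length this was a log2 ratio of 0.69 ± 0.18 in noPRP and 0.82 ± 0.021 in PRP (SD, n = 2 each). The groups overlapped, and the difference of 0.13 on the log2 scale was smaller than the gap of 0.25 between the noPRP libraries. By the counter's default a read counts for an exon that it overlaps only in part, and no source used here gives the read length. A level per length can therefore be off for genes this short, and whether it was here, and in which direction, was not tested. On raw counts the outer genes were nearly equal, with log2 ratios of −0.15 in noPRP and −0.016 in PRP.

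The middle gene made up a smaller part of the group with PRP than without it. Its counts relative to the left gene were 0.358 (95% interval 0.281 to 0.454) and 0.410 (0.360 to 0.466) without PRP. With PRP they were 0.136 (0.133 to 0.140) and 0.164 (0.161 to 0.167). Per exon length the log2 ratio of middle over left was −1.71 ± 0.14 in noPRP and −3.07 ± 0.19 in PRP (SD, n = 2 each), 2.56-fold lower with PRP. The nearest libraries of the 2 groups were 1.13 apart, where the noPRP libraries were 0.19 and the PRP libraries 0.26 apart. The ratio of middle over right showed the same picture, at −1.02 ± 0.31 in noPRP and −2.24 ± 0.17 in PRP, 2.34-fold lower. There the nearest libraries of the groups were 0.89 apart, against gaps of 0.44 and 0.23 within groups. These ratios come from the contrast that chose the genes and carry no test. Length cancels in the difference between groups, so it does not depend on the exon lengths.

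**Figure D3:**
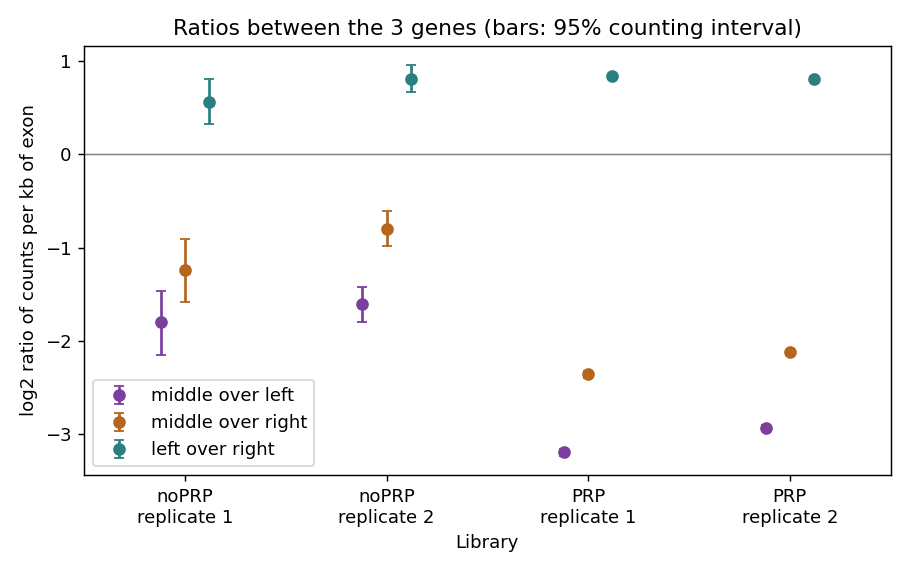
log2 ratio of counts per kb of exon for the 3 pairs of genes in each library (vertical axis), with 95% intervals from exact binomial limits that cover counting error only. Left over right stays between 0.57 and 0.84, while both ratios with the middle gene are lower in the PRP libraries than in the noPRP libraries.

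As a share of the summed counts of the group, the middle gene held 13.95% (exact binomial 95% interval 11.5 to 16.8) and 16.9% (15.2 to 18.6) in noPRP. It held 6.38% (6.24 to 6.52) and 7.49% (7.37 to 7.61) in PRP. The left gene went the other way, from 39.0% and 41.2% to 46.8% and 45.8%. The right gene held 47.1% and 41.9% in noPRP, a range that includes its 46.8% in both PRP libraries.

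The 3 genes also differed together between libraries of one group, in a direction that the choice of genes did not use. The size of the difference did enter the choice, since a call depends on the spread within groups. In noPRP, replicate 2 was above replicate 1 by 1.52, 1.65 and 1.29 in log2(CPM + 0.5) for the left, middle and right gene, or 2.95-, 3.37- and 2.49-fold in CPM. These differences lay at the percentiles 89.4, 91.1 and 84.7 of all tested genes, whose median was 0.040. In PRP, replicate 2 was above replicate 1 by 0.87, 1.13 and 0.90, or 1.83-, 2.20- and 1.87-fold in CPM. The percentiles were 80.3, 87.5 and 81.2, around a median of −0.031. In both groups the middle gene had the greatest difference between the libraries. With 1 pair of libraries a group, no test of this was possible.

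**Figure D4:**
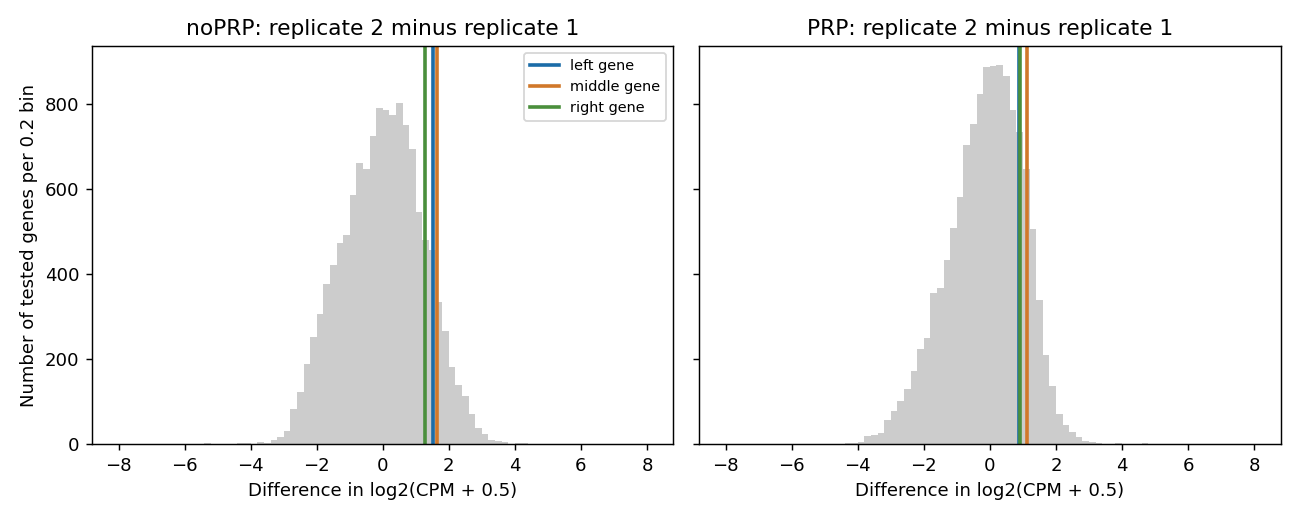
Histograms of the difference between the 2 libraries of a group, replicate 2 minus replicate 1 in log2(CPM + 0.5), over the 12707 tested genes, for noPRP (left panel) and PRP (right panel). Vertical lines mark the left, middle and right gene, which lie between 1.29 and 1.65 in noPRP and between 0.87 and 1.13 in PRP, all above 0.

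Over the 4 libraries the outer genes had nearly the same profile. When log2(CPM + 0.5) was centred on each gene's own mean, the Euclidean distance between left and right was 0.21. Of all other tested genes, the right gene was the nearest to the left, and the left the nearest to the right. The median distance to a tested gene was 7.34 from the left and 7.19 from the right gene. For the members, most of such a profile is the difference between the groups, which chose them. Distances far below the median were therefore largely set by the choice, and nothing is read from that comparison. The middle gene was 1.44 from the left and 1.33 from the right gene. In order of nearness it ranked 5 for each of them, and its own nearest gene, at 0.65, was not a member.

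Measured against the mean profile of the 3 members, the nearest other gene lay on chromosome 9 at positions 103893995 to 103901452, at a distance of 0.59. Its counts were 0 and 40 without PRP and 1474 and 2381 with PRP, and it was not among the called genes. The next, on the unplaced sequence GL018733 from 2135282 to 2139361, was at a distance of 1.06. With 7185 and 17723 counts without PRP and 1968513 and 1300935 with PRP, it was far more abundant than any member. A gene on chromosome 5, at positions 12871164 to 12909375, followed at a distance of 1.27, with 401 and 958 counts without PRP and 25612 and 29543 with PRP. The other 2 lay on unplaced sequences at distances of 1.39 and 1.48. Each of these 5 was lower in both noPRP libraries than in both PRP libraries, which their choice by this profile brings about. Over all tested genes the share was 23.8%. Only 2 and 3 of them stayed among the nearest 5 when 0.1 or 2 was added to the CPM in place of 0.5, so the list beyond the members depends on that constant.

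The surroundings of the group differed on its 2 sides. Within 500 kb, 28 genes were listed on the left and 16 on the right. On the left, 21 of the 28 had enough counts to be tested. On the right 0 of the 16 did: 10 had 0 counts in all 4 libraries, and none of the other 6 had more than 20 counts summed over the libraries. All 16 together summed to 4 and 4 counts without PRP and 1 and 20 with PRP. Over all listed genes 43% were tested and 32.6% had 0 counts throughout. The group thus lay at the edge of a stretch with next to no counts.

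The genes just outside the group were nearly silent. The nearest on the left, at positions 38992100 to 38995809 and 8313 bases away, showed 1 and 0 counts without PRP and 22 and 6 with PRP, too few to be tested. The nearest on the right, 100264 bases away, had 0 counts in 3 libraries and 1 count in PRP replicate 2.

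None of the 21 tested flanking genes passed the test. In edgeR's quasi-likelihood test 0 were called at an adjusted p under 0.05, 1 had an unadjusted p under 0.05, and the smallest adjusted p was 0.375. DESeq2 and limma-voom also called 0 of the 21. Over all 12707 tested genes 109 were called, or 0.858%, with 0.535% higher and 0.323% were lower in PRP. At that background a count of 0 in 21 genes does not set the flanks apart. Nor does it show them unchanged: on simulated counts 0 of 50 changes of 2-fold and 1 of 49 of 4-fold were called. The interval of the members was itself set with earlier calls of these libraries known. The total over all genes was 571 without noPRP replicate 1 and 165 without PRP replicate 1, while the flanks stayed at 0 in both cases. With upper-quartile normalization 46 genes were higher and 14 lower, against 68 and 41 with TMM.

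Fold changes of the tested flanking genes were small beside those of the members, which were chosen for their rise. A neighbour that rose as much could have been drawn into the interval, so this contrast was partly set by the choice. Those of the flanks ranged from −1.56 to 2.61 on the log2 scale, with a median of 0.78. The median over all tested genes was 0.035. Of the 21, 18 were positive (85.7%), against 51.1% of all tested genes. Groups did not overlap for 8 of the 21 (38.1%), all of them higher in PRP. The like share over all tested genes was 23.8% for higher in PRP and 46.9% for either direction. These shares were not tested. The median of the flanks rested in part on single libraries: it was 0.11 without PRP replicate 2 and 1.32 without noPRP replicate 1.

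PRP replicate 2 stood apart in the 2 most abundant flanking genes, both on the left. The gene at positions 38920164 to 38967112, 37010 bases from the group, had levels of 536 and 625 CPM without PRP, and 581 and 2855 CPM with PRP. The gene at positions 38911738 to 38913874 had levels of 907 and 292 CPM without PRP, and 302 and 2967 CPM with PRP. Their log2 fold changes were 1.57 (SE 0.90, edgeR adjusted p = 0.475) and 1.45 (SE 1.03, edgeR adjusted p = 0.543). PRP replicate 1 lay within the range of the noPRP libraries for both. For the 3 members, which were chosen by this contrast, it was at least 21.5-fold above either noPRP library. The next most abundant flanks lay farther away. The one from 38524606 to 38525921 averaged 258 ± 25.0 CPM without PRP and 457 ± 295 CPM with PRP, and the one from 38806245 to 38813105 averaged 252 ± 37.3 and 272 ± 102 CPM (SD, n = 2 each).

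**Figure D5:**
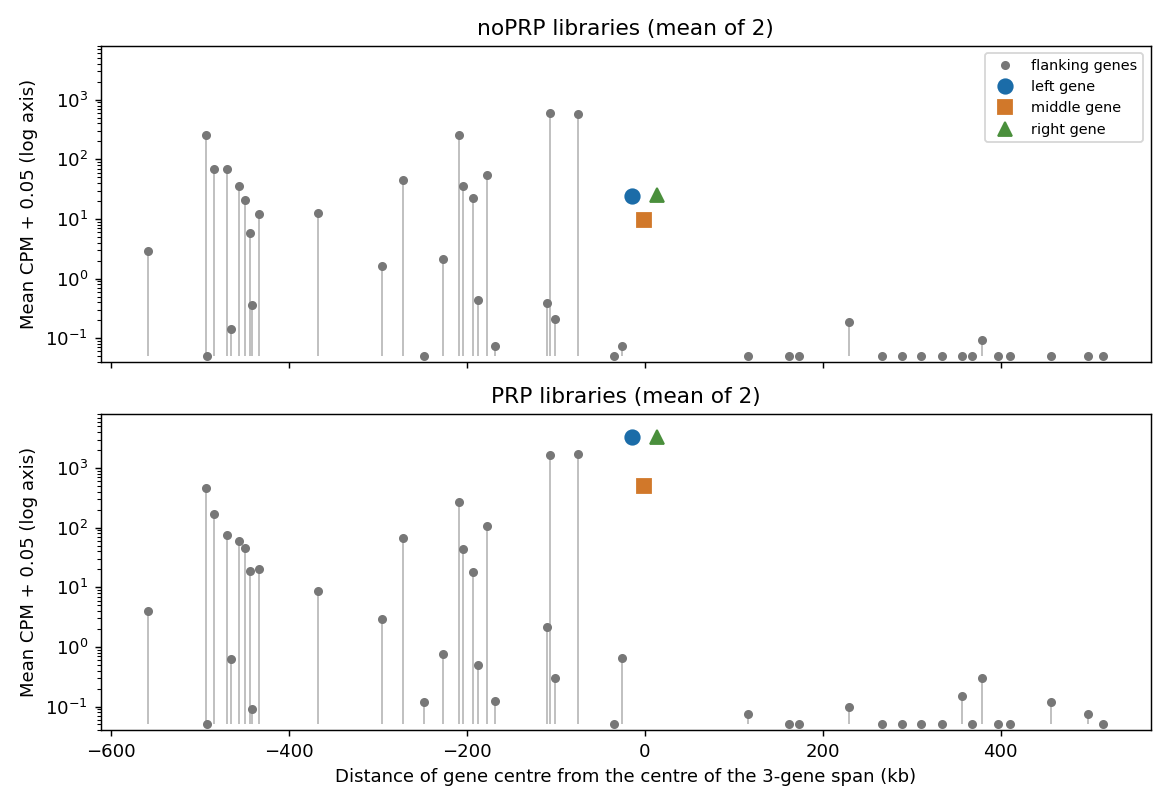
Mean CPM + 0.05 (log axis) of the genes within 500 kb, placed by the distance of their centre from the centre of the 3-gene span in kb, for the noPRP libraries (upper panel) and the PRP libraries (lower panel), each the mean of 2. The outer pair of members stands above all flanking genes in the PRP panel and below several of them in the noPRP panel, and the 16 genes on the right stay near the floor of the axis in both panels.

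Elsewhere on chromosome 13 the nearest called gene was 9.87 Mb away, at positions 48903976 to 48916352, with 1 and 1 counts without PRP and 296 and 363 with PRP (edgeR adjusted p = 0.0129). Apart from the members, 6 of 875 tested genes of the chromosome were called, 5 higher and 1 lower in PRP. Over all 12707 tested genes 109 were called, or 0.858%, so nothing is read from the count for the chromosome.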

How the data were processed

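Per the labels' protocols, RNA from TRIzol extraction was purified for mRNA on magnetic beads and made into Illumina TruSeq libraries for a HiSeq instrument. The values the authors deposited are raw counts, with a table for each library. The tools and build named, per the submitters' processing notes, are STAR 2.7.2a, featureCounts 1.6.5 and OryCun2.0. Per the file headers, reads on exons were summed by gene with the Ensembl 98 annotation and no option for strand, read pairs or multiple alignments, so by default both strands were counted and multiply aligned reads were dropped. Total counts were 20100175 and 20947284 in noPRP and 24064713 and 23829027 in PRP.

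From these counts, edgeR 4.0.16 in R 4.3.3 kept 12707 genes (filterByExpr) and scaled the libraries with TMM, a trimmed mean of log ratios between libraries (factors 1.09, 1.09, 1.00 and 0.842). The groups were compared with glmQLFit and glmQLFTest on group alone, with Benjamini-Hochberg adjustment over all tested genes. SEs come from the F statistic. With 2 libraries a group, the smallest two-sided p of an exact permutation test is 0.333. The p-values measure only the spread between these libraries, which may be technical. For each gene that spread was drawn towards a trend over all tested genes, with a median of 11.4 prior against 2 residual degrees of freedom. On simulated counts for 12707 genes, 33 of the 49 changes of 16-fold that passed the filter and 1 of 49 of 4-fold were recovered. The simulation gave each gene the spread of that trend, with no deviation of its own, and 3 unchanged genes were called. Recovery in the real libraries can therefore differ. DESeq2 1.42.0 and limma 3.58.1 were alternatives. Members, windows and lists were chosen with earlier results of these data known. Named genes are the members, the 4 flanking genes within 500 kb with the highest level (none passed the test), and the 5 genes with the most similar profile over the 4 libraries. The nearest genes outside the span and the nearest called gene on the chromosome were added after their values were seen. The lists of markers and inflammatory genes could not be read, because they need symbols.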

Additional observations from a re-analysis of the deposited data

How the results depend on the processing

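The 3 members kept a positive fold change in all 12 other fits. Leaving out a library gave log2 fold changes of 6.52 to 8.06 for the left, 5.11 to 6.84 for the middle and 6.51 to 7.80 for the right gene. The other fits stayed within the spread between replicates. The filter moved the median log2 fold change over all tested genes by 0.16 when removed, and the medians without PRP replicate 1 and without PRP replicate 2 moved by −0.12 and −0.11; no normalization moved it by over 0.1.

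The count of called genes, 109, went to 60 by upper-quartile normalization, 728 by DESeq2, 203 by the stricter filter, 565 by none, and 114 to 571 without a library. Of the flanking genes 0 were called in each of these fits and in windows of 100 and 1000 kb. For none of these counts was the cause tested. Replicate numbers are not said to pair libraries, and across genes the deviations of libraries with one number correlated at −0.66; the replicate block gave 57 called genes and 0 flanking genes. The crossed replicate block, chosen after the data were examined, gave 3588 called genes and 3 flanking genes.

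Without the length term, the log2 ratio of middle over left was −1.38 in noPRP and −2.74 in PRP, that of middle over right −1.53 and −2.76, and that of left over right −0.15 and −0.016, on the other side of 0. With 100 bases added to each length, also chosen after the data were examined, left over right in PRP was 0.66. With each library left out, the ratios ranged over the values of single libraries: middle over left from −1.80 to −1.61 in noPRP and −3.20 to −2.93 in PRP, middle over right from −1.24 to −0.80 and −2.36 to −2.13, and left over right from 0.57 to 0.81 and 0.81 to 0.84.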
